A study of Mus musculus with 11 samples.

Results

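The cells described here are colonic macrophages (macs) from mice with and without CRE-driven deletion of the transcription factor ZEB2, profiled cell by cell on the 10x Genomics platform, which counts transcripts from their 3′ end by unique molecular identifiers (UMIs). All barcodes of the WT and the Zeb2KO colon library were taken, and those with at least 5 UMIs of C1qa, C1qb and C1qc together were kept. C1q is the starter molecule of the classical complement pathway and is made by resident macs of many tissues. The gate kept 4984 of 4989 WT and 4370 of 4390 Zeb2KO barcodes, so 9354 of the 9379 colon barcodes entered, of 51712 barcodes in the series. Just outside the gate, at 3 to 4 C1q UMIs, lay 4 WT and 15 Zeb2KO barcodes, and just inside it, at 5 to 6 UMIs, lay 15 and 35. The median C1q count was 162 UMIs in WT and 121 in Zeb2KO, and 28 barcode sequences (0.561% of WT) occurred in both libraries.

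Both groups carried loxP-flanked Zeb2 alleles (Zeb2fl/fl). WT mice had no CRE, and Zeb2KO mice were Fcgr1-cre x Zeb2fl/fl littermates, in which CRE is driven by the locus of the Fc receptor CD64. According to the methods of the study, the mice were on a C57Bl/6 background, of mixed sex and 6 to 8 weeks old unless stated otherwise. The study also reports that Fcgr1-cre acts in other immune cells, such as B cells, T cells and dendritic cells. The colon cells were sorted as live CD45+ CD64+ F4/80+ cells without Ly6C, Ly6G and SiglecF on the surface, which bears on how many cells with Ly6c2 or Siglecf RNA could enter. There was 1 library a side, and the number of mice behind it is not given in the sources used here. No test of genotype was therefore possible. All intervals given are exact 95% intervals and cover counting error only, and a difference between the libraries cannot be told apart from a difference between the mice or preparations.

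ZEB2 is a zinc finger protein that binds E-box sequences and mostly represses transcription. Much of the work on it concerns epithelial cells that turn mesenchymal, and it is expressed throughout the mononuclear phagocyte lineage. In the colon, most macs are replaced continuously by blood monocytes, which arrive as CCR2+ cells and gain MHC class II and scavenger receptors such as CD163 as they mature, while a long-lived population around vessels, nerves and muscle expresses LYVE1 and FOLR2. The questions asked of the data were which genes differed between the libraries, whether they differed in all macs or in a part of them, and how the mix of mac states differed.

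Gated cells held 47379431 UMIs in WT and 39576936 in Zeb2KO, with a median of 8760 and 8098.5 per cell. Levels are given in CPM: UMIs were added up over the cells named and scaled to a total of 1000000 over all genes. Zeb2 (chromosome 2: 44983632–45117395, GRCm38/mm10) itself stood at 373 CPM (interval 367 to 378) in WT and 473 CPM (467 to 480) in Zeb2KO. The 3′ assay reads the end of the transcript, which a floxed allele can keep after recombination, so this value does not check the deletion. The study treats only part of the macs of CRE+ mice as lacking both alleles, so Zeb2KO here names the library and not the genotype of each cell. In the colon the study placed all such cells among macs high in Cd74, and it compared only those macs. The clusters below include macs low in Cd74 and were not matched to the groups of the study. In cluster 5, described below, Zeb2 stood at 396 CPM (338 to 460) in WT and 729 CPM (708 to 750) in Zeb2KO. C1qa, which the gate used, was at 7065 and 6615 CPM. Adgre1 (F4/80) was at 576 and 583 CPM and Csf1r, the receptor for the mac growth factor CSF1, at 938 and 797 CPM.

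The gate did not separate macs from other cells. Of 18 clusters of the gated cells, 7 had markers of another cell type and little of the mac markers, with 5.82% of WT (290 cells) and 5.63% of Zeb2KO cells (246 cells). They were fibroblast-like (135 and 116 cells), smooth muscle-like, epithelial cell-like, plasma cell-like, endothelial cell-like (2 clusters), and 1 unnamed cluster with B cell and T cell markers. These cells carried C1qa at 1589 CPM in WT and 1626 CPM in Zeb2KO, which is the level that cells of other types read. The fibroblast-like cells are set beside the macs below as a reading of RNA from outside the cell. This reading is no floor: in Zeb2KO, the gene Vsig4 read 56.5 CPM in these cells and 10.1 CPM in cluster 5. Whether these cells make Saa3 or Iigp1 themselves was not tested.

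Genes that reached 20 CPM in either library were considered, and a gene was called different when its CPM + 1 lay 2-fold or more apart, a log2 ratio of Zeb2KO over WT of 1 or more in either direction. This held for 81 of 5271 genes (1.54%), of which 53 were higher (1.01%) and 28 lower (0.531%) in Zeb2KO. The median log2 ratio of all 5271 genes was 0.04. Between the 2 CRE-negative liver libraries of the series, one Zeb2fl/fl and the other Nr1h3fl/fl (Nr1h3 encodes LXRα), which hold no deletion, the same rule called 1.52% of genes, and it called 3.09% in splenic macs (SMs), 4.69% in Kupffer cells (KCs) and 8.4% in microglia. The KCs were from mice with another CRE, Clec4f-cre. In SMs the C1q gate kept only 72.5% of WT and 80.4% of Zeb2KO barcodes, so SM values here and below rest on part of the sort. By number of genes the colon pair was thus near the pair without deletion. That pair is of another tissue and of different floxed lines, so it does not measure the background between colon littermates. Without the clusters of other cell types 78 of 5141 genes (1.52%) were called.

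**Figure D1:**
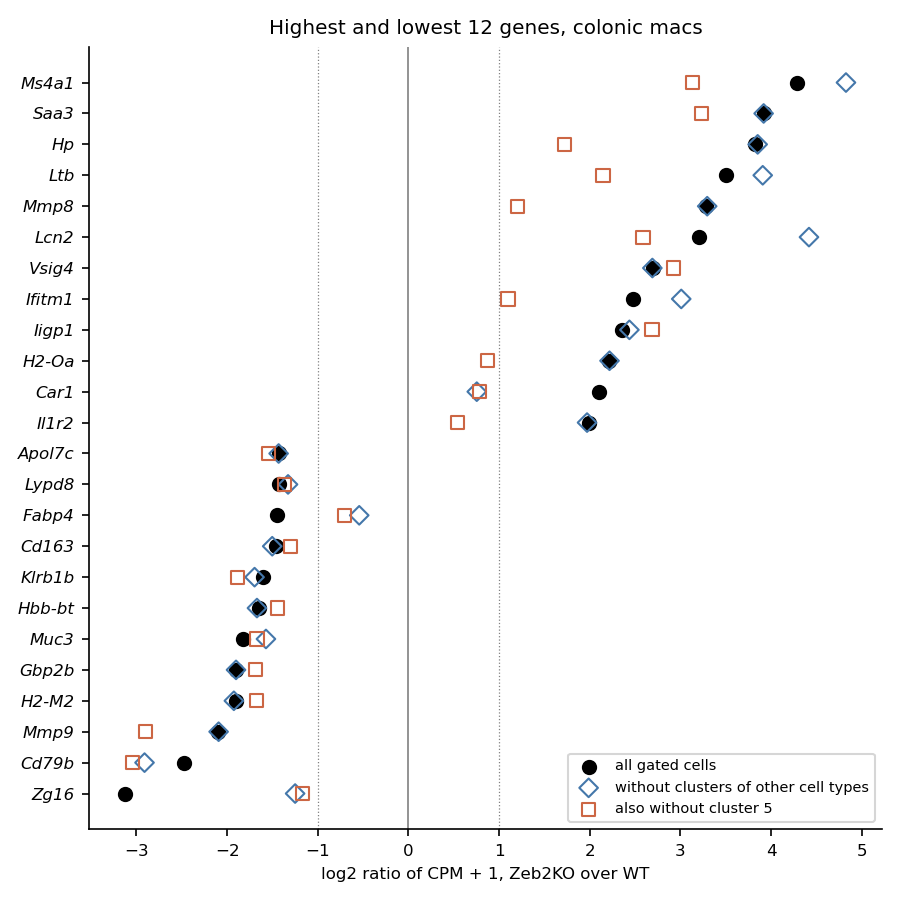
Log2 ratio of CPM + 1, Zeb2KO over WT, for the 12 genes with the highest and the 12 with the lowest ratio among the genes called, from UMIs summed over all gated cells (filled circles), without the clusters of other cell types (diamonds) and also without cluster 5 (squares). Dotted lines mark 2-fold. Ms4a1, Saa3 and Vsig4 stay far to the right in each of the 3 sums, whereas H2-Oa and Il1r2 come to within 2-fold once cluster 5 is left out.

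The highest genes in Zeb2KO included 3 acute phase genes, Saa3, Hp and Lcn2. Ms4a1, which encodes the B cell antigen CD20, had the highest ratio (log2 4.29), in all gated cells from 0.697 CPM (0.479 to 0.978; 33 UMIs) to 32.1 CPM (30.4 to 33.9; 1271 UMIs). Saa3 (chromosome 7: 46711998–46715700), a serum amyloid A protein of mac and epithelial inflammation, stood at 52.8 CPM (50.8 to 55.0) in WT and 818 CPM (809 to 827) in Zeb2KO (log2 3.93). Hp, the haemoglobin scavenger haptoglobin, was at 0.802 and 24.5 CPM (3.82), the neutrophil collagenase gene Mmp8 at 1.54 and 23.7 CPM (3.28), and Lcn2, lipocalin 2, which binds bacterial siderophores, at 4.71 and 51.7 CPM (3.21). Saa3 also differed by a log2 ratio of -7.63 between the CRE-negative liver libraries (198 against 0 CPM), so its level varies strongly in the series without Zeb2 deletion.

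Ltb, which encodes lymphotoxin β, was at 3.12 CPM in WT and 45.8 CPM in Zeb2KO (3.50). The interferon-induced membrane protein gene Ifitm1 was at 95.2 and 534 CPM (2.48), with 37.2% of its WT UMIs in clusters of other cell types. The interferon-induced GTPase gene Iigp1 was at 6.56 and 37.9 CPM (2.36). H2-Oa, a chain of the H2-O modulator of MHC class II loading, was at 8.32 and 42.3 CPM (2.22), and the IL-1 decoy receptor gene Il1r2 at 19.5 and 80.4 CPM (1.99). Vsig4 (chromosome X: 96247203–96293438), the complement receptor CRIg of resident macs, was at 14.1 CPM (13.03 to 15.2) and 97.0 CPM (94.0 to 100.1), a log2 ratio of 2.70. Car1, a carbonic anhydrase of colonic epithelium, completed the 12 with a ratio of 2.10, but 89.5% of its Zeb2KO UMIs lay in clusters of other cell types and its ratio without them was 0.75. Of the 12 highest genes 11 were called without the clusters of other cell types.

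Among the lowest genes in Zeb2KO was Cd79b (chromosome 11: 106311341–106314762), a signalling chain of the B cell receptor complex, at 40.1 CPM (38.3 to 41.9) in WT and 6.39 CPM (5.63 to 7.23) in Zeb2KO (-2.48). Only 4.79% of its WT UMIs lay in clusters of other cell types. The gelatinase gene Mmp9 was at 32.0 and 6.67 CPM (-2.10), the non-classical MHC gene H2-M2 at 109 and 28.3 CPM (-1.91), the guanylate-binding protein gene Gbp2b at 31.6 and 7.76 CPM (-1.90), and the C-type lectin gene Klrb1b at 21.4 and 6.39 CPM (-1.60). Cd163 (chromosome 6: 124304656–124330527), the receptor for haptoglobin bound to haemoglobin, was at 80.3 CPM (77.7 to 82.8) and 28.4 CPM (26.8 to 30.1), a log2 ratio of -1.47. The apolipoprotein L gene Apol7c was at 262 and 96.9 CPM (-1.43).

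For 4 of the other 5 lowest genes most UMIs came from other cell types. Zg16, Muc3 and Lypd8, which are genes of goblet cells and enterocytes, had 78.4%, 88.6% and 80.6% of their WT UMIs in clusters of other cell types, and Fabp4, a fatty acid binding protein of endothelium and some macs, had 79.9% there. The haemoglobin gene Hbb-bt rested on 1 cell: of 1576 UMIs in WT macs, 1498 came from the same barcode. Of the 12 lowest genes 8 were called without the clusters of other cell types, and Hbb-bt was 1 of the 8.

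The list of genes does not say in how many cells each of them was found. Each cell was therefore thinned to 3000 UMIs, which left out 158 WT and 164 Zeb2KO cells, and the share of macs with at least 1 UMI was counted. Ms4a1 was seen in 0.0660% of WT macs (interval 0.0136 to 0.193) and 6.65% of Zeb2KO macs (5.89 to 7.47). Without thinning these shares were 0.170% and 10.96%. Cells of other types, B cells among them, had it in 2.52% and 5.51%. Vsig4 was seen in 3.06% and 17.2% of macs, against 0.719% and 5.51% of the cells of other types. Cd79b went the other way, with 10.8% (9.87 to 11.7) and 1.18% (0.871 to 1.57) of macs, against 9.35% and 6.36% of the cells of other types. Mmp9 was seen in 7.45% and 1.11% of macs (2.16% and 0.424% of other types), H2-M2 in 12.4% and 4.26% (2.88% and 0.847%), Cd163 in 18.8% and 6.68% (2.88% and 2.97%) and Apol7c in 29.0% and 11.5% (11.2% and 2.54%). For each of the 12 highest and 12 lowest genes the share lay in the same direction as the ratio. Both come from the same UMIs, so this is no separate support for the list.

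Saa3 needs its reading in other cells beside it. After thinning, 3.91% of WT macs and 36.0% of Zeb2KO macs had a UMI of Saa3, but so did 3.24% of WT and 25% of Zeb2KO cells of other types. The WT share in macs was thus close to that in cells of other types. Most Zeb2KO cells with Saa3 had few UMIs of it, and 187 of 4124 Zeb2KO macs (4.53%) with at least 20 UMIs each held 84.0% of all Saa3 UMIs. In WT there were 21 such cells among 4694 macs (0.447%). The highest cell had 1554 UMIs in Zeb2KO and 395 in WT. Ifitm1 was concentrated in the same manner, with 237 Zeb2KO macs (5.75%) of at least 20 UMIs that held 75.9% of its UMIs, against 17 such macs in WT.

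To set the mix of states side by side, the gated cells of both libraries were clustered together without the genes that were at least 2-fold apart between them (176 genes at 5 CPM or more). C1q, mitochondrial, ribosomal, sex-linked and immunoglobulin genes were left out too. The clustering gave 11 mac clusters beside the 7 of other types. The shares of the libraries differed by 37.3% in all (the sum of the positive differences over the clusters), with a range of 26.8% to 40.3% over the other settings tried. With 1 library a side, a cluster made up mostly of 1 library may be a property of that library rather than a cell state.

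**Figure D2:**
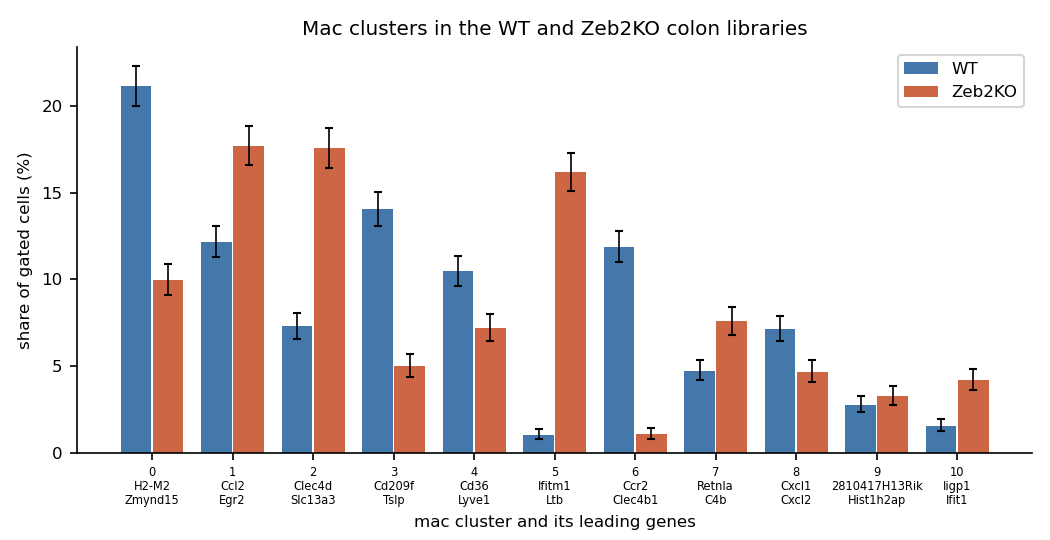
Share of gated cells (percent) in each of the 11 mac clusters, WT and Zeb2KO, with exact binomial 95% intervals that cover counting error only; 2 leading genes are given under each cluster number. Cluster 5 holds 1.04% of WT and 16.2% of Zeb2KO cells, and cluster 6 holds 11.9% and 1.05%.

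The 3 clusters furthest apart in share were all rich in MHC class II. Cluster 0, unnamed, with H2-M2, Zmynd15 and Apol7c leading and high MHC class II, held 1053 WT cells (21.1%) and 435 Zeb2KO cells (9.95%, interval 9.08 to 10.9). Cluster 6, unnamed, was led by Ccr2, the receptor with which monocytes leave the blood, and by Clec4b1 and Clec12a. It held 592 WT cells (11.9%) and 46 Zeb2KO cells (1.05%). Cluster 5, unnamed, went the other way, with 52 WT cells (1.04%, interval 0.780 to 1.37) and 707 Zeb2KO cells (16.2%, 15.1 to 17.3). Cluster 8, inflammatory-like, with the neutrophil-attracting chemokine genes Cxcl1 and Cxcl2, held 7.12% and 4.67%.

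Among the clusters low in MHC class II, some held a smaller and some a larger share of Zeb2KO than of WT cells. Cluster 3, resident-like, led by the lectin genes Cd209f and Cd209g and by Cd163, held 14.0% of WT and 5.01% of Zeb2KO cells. Cluster 4, also resident-like, led by the fatty acid receptor gene Cd36 and by Lyve1, held 10.5% and 7.21%. Cluster 7, resident-like, led by Retnla, C4b and Lyve1, was larger in Zeb2KO, at 4.74% and 7.57%. Cluster 2, unnamed, led by Clec4d and the formyl peptide receptor gene Fpr1, held 7.28% and 17.6%, and cluster 1, stress-like, led by Ccl2, Egr1 and Egr2, held 12.2% and 17.7%. The immediate early genes of cluster 1 can be induced by tissue digestion, and their part in these shares was not tested.

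The 2 smallest mac clusters were a dividing-like one and an interferon-like one. Dividing-like cells (cluster 9, with Top2a and Birc5) made up 2.77% of WT (2.33 to 3.26) and 3.27% of Zeb2KO cells (2.76 to 3.84), and these intervals overlap. Interferon-like cells (cluster 10, with Iigp1, Ifit1 and Ifit2) made up 1.54% (1.22 to 1.93) and 4.21% (3.63 to 4.85).

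Cluster 5 held most of the UMIs of 8 of the 12 highest genes. Of the Zeb2KO UMIs, it had 84.8% for Hp, 83.3% for Mmp8, 75.5% for Ltb, 72.9% for Ms4a1, 72.2% for Ifitm1 and for Lcn2, 69.6% for Il1r2, 67.8% for H2-Oa and 49.3% for Saa3. It had 1.69% for Vsig4, 1.60% for Car1 and 1.201% for Iigp1. These genes were left out of the clustering, so they did not draw the cells together. When cluster 5 and the other cell types were left out, a choice made after seeing the data, 59 of 5181 genes (1.14%) were called, 32 higher (0.618%) and 27 lower (0.521%). Of the 12 highest genes 4 were then still called (Saa3, Vsig4, Ifitm1 and Iigp1), and of the 12 lowest 8.

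Cells of cluster 5 had little C1q. The cluster is counted with the mac clusters because no marker list of another cell type reached a mean log2 fold of 1. The highest was that of neutrophils, at 0.71. None of the listed markers of other cell types was among its 10 leading genes either. Ms4a1 and Mmp8, which B cells and neutrophils express, were among the 10 and are on no marker list, and no mac marker was. Its mac markers were lower than in the other cells (mean log2 fold -1.09), those of monocytes (1.28) and inflammatory macs (1.62) higher, and it has no name. The median was 60 C1q UMIs, the lowest of these clusters, and C1qa stood at 3055 CPM in its Zeb2KO cells against 7693 in the other Zeb2KO macs and 1561 in fibroblast-like cells. They were low in resident mac genes, with Vsig4 at 10.1 CPM against 119 in the other Zeb2KO macs, Lyve1 at 18.0 against 224, and the platelet factor gene Pf4 at 605 against 4896. They were high in Il1b, at 4883 CPM against 620, and in MHC class II, with Cd74, the invariant chain of MHC class II, at 26974 against 13112. Ccr2 was at 167 against 12.4 CPM and the prostaglandin synthase gene Ptgs2 at 411 against 41.0. A cluster set against the rest is a description, since the clustering used these cells.

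Markers of other blood cells were read in cluster 5, since the sort or the gate could have passed such cells. Of the B cell markers Pax5 and Fcmr were at 0 UMIs in its 707 Zeb2KO cells, and the list, which does not hold Ms4a1, summed to 10.1 CPM, against 18.9 CPM in all Zeb2KO macs, cluster 5 included. Ms4a1 alone stood at 144 CPM there. Of the 452 Zeb2KO macs with a UMI of Ms4a1, 317 lay in cluster 5, 9 also had Cd79a and 1 had Pax5. The neutrophil list summed to 184 CPM in the cluster against 61.2 CPM in all Zeb2KO macs, with Retnlg, Camp and Ngp at 0. Of that list Csf3r, the G-CSF receptor gene, was at 87.7 CPM in Zeb2KO cells of cluster 5, above the 13.9 to 31.9 CPM of the other Zeb2KO clusters, and the chemokine receptor gene Cxcr2 at 9.62 CPM (7.37 to 12.3). The list does not hold Lcn2 and Mmp8, which neutrophils also express. The eosinophil list summed to 13.7 CPM against 4.30 CPM in all Zeb2KO macs, with Ear1, Ear6, Epx, Prg2 and Il5ra at 0. Nearly all of that sum in the cluster was Siglecf, at 13.3 CPM (10.7 to 16.5). The study uses Siglecf and Ms4a1 among its markers of colonic macs that lack ZEB2. The mast cell list summed to 6.21 against 1.71 CPM, with 5 of its 7 markers at 0. The dendritic cell list summed to 232 CPM in the cluster and 234 CPM in all Zeb2KO macs. Of that list Ccr7, the chemokine receptor gene of migrating dendritic cells, was at 54.0 CPM against 2.71 CPM in the other Zeb2KO macs. As the sums were level, the other members of the list together were lower in the cluster, where Irf8 alone stood at 123 CPM. Averaged by marker, the list had a log2 fold of 0.33 in cluster 5 against all other gated cells, both libraries together. Napsa, which is not on the list, was at 233 against 16.7 CPM. The part of RNA of such cells in these levels was not tested further.

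The 52 WT cells of cluster 5 allow the cells of the same cluster to be compared between libraries. They held 424516 UMIs, against 6445484 of the 707 Zeb2KO cells, so WT values are coarse. Genes under 2-fold apart over all cells could enter the clustering, which tends to make them alike within a cluster, and those further apart could not. Among the former, Cd74 was at 29071 CPM in WT and 26974 in Zeb2KO, Il1b at 5484 and 4883, Slc7a11 at 139 and 147, and Ass1 at 106 and 108. C1qa, left out of the clustering with the other C1q genes, was at 2862 and 3055. Of the genes left out as further apart, some were under 2-fold apart here, such as the lectin gene Clec4e, at 155 and 189 CPM, and Ptgs2, at 318 and 411. In contrast, Ms4a1 and Lcn2 had no UMI in the WT cells (upper limit 8.69 CPM). They stood at 144 CPM (135 to 153) and 229 CPM (217 to 241) in the Zeb2KO cells. Ltb was at 11.8 CPM (3.82 to 27.5) and 212 CPM (201 to 224), Mmp8 at 7.07 (1.46 to 20.7) and 121 (113 to 130), H2-Oa at 21.2 (9.69 to 40.2) and 176 (166 to 187), and Ifitm1 at 181 (143 to 227) and 2369 (2331 to 2407). Saa3 was at 196 and 2477 CPM, but 82 of the 83 WT UMIs came from 1 cell.

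Of 2490 genes of at least 50 CPM in cluster 5, 162 (6.51%) were at least 2-fold apart, 84 higher (3.37%) and 78 lower (3.13%) in Zeb2KO. At the same floor 118 of 2435 genes (4.85%) were called in cluster 6, with 592 WT and 46 Zeb2KO cells. The shares given below for larger clusters use a floor of 20 CPM and are not comparable with these. Lower were the interferon-γ-induced chemokine gene Cxcl9, at 523 CPM (456 to 596) in WT and 19.1 (15.9 to 22.8) in Zeb2KO, Ccl5 at 514 and 113, the dendritic cell chemokine gene Ccl17 at 188 and 36.1, and Ccr2 at 412 and 167. Tnf was at 266 and 96.0 CPM. Higher were the collagenase gene Mmp13 at 16.5 and 238 CPM, Spp1, which encodes osteopontin, at 68.3 and 301, and Hpgds, a prostaglandin D synthase, at 18.8 and 108. The genes compared within cluster 5, other than the 12 highest and lowest, were picked after their values were seen.

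**Figure D3:**
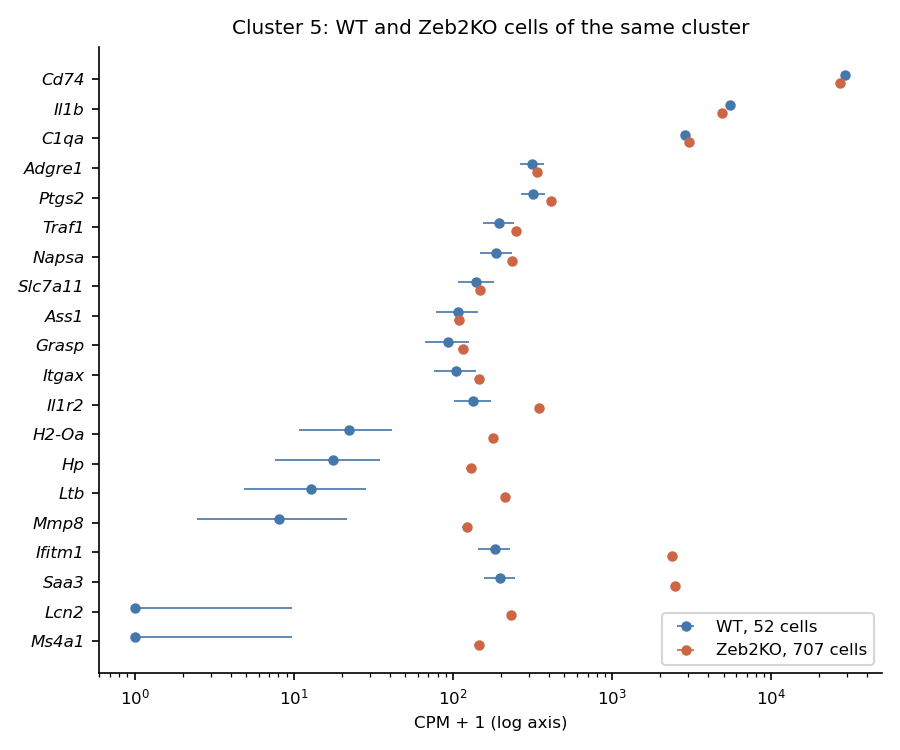
Level of 20 genes (CPM + 1, log axis) in the 52 WT and 707 Zeb2KO cells of cluster 5, with exact Poisson 95% intervals that cover counting error only. Cd74, Il1b, C1qa and the genes down to Itgax lie close together, whereas H2-Oa, Hp, Ltb, Mmp8, Ifitm1, Saa3, Lcn2 and Ms4a1 lie far apart, with Lcn2 and Ms4a1 at 0 UMIs in WT.

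The remaining difference was looked for inside each cluster, for the 7 mac clusters with at least 200 cells from each library. The rule called 1.37% of the genes considered in cluster 0, 0.955% in cluster 1, 0.956% in cluster 2, 1.04% in clusters 3 and 4, 1.64% in cluster 7 and 1.58% in cluster 8. Genes higher in Zeb2KO in several clusters were Saa3 in 7 of 7, Cystm1, Pdpn and Tnfsf13os in 6, and C3, Fcna, Ifitm1, Spp1 and Vsig4 in 5. Genes lower in Zeb2KO were Apol7c, Cd79b and Eng in 7 of 7, Emb, Mgst1 and Mmp9 in 6, and Cd163, Lpl and Rasgrp2 in 5. Tnfsf13os is annotated antisense to Tnfsf13, and reads of overlapping genes may be assigned to either. Those of these genes that are not named above were listed after their values were seen.

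**Figure D4:**
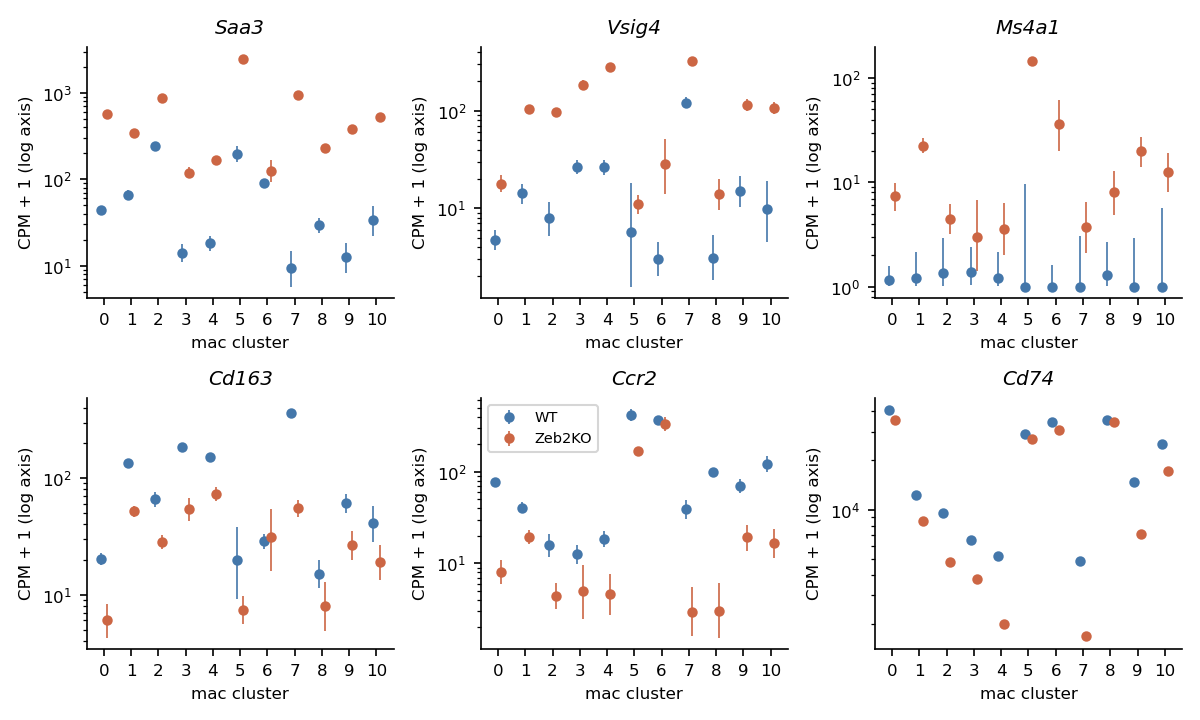
Level of 6 genes (CPM + 1, log axis) in the WT and Zeb2KO cells of each of the 11 mac clusters, with exact Poisson 95% intervals that cover counting error only. Vsig4 is higher and Cd163 lower in Zeb2KO in the resident-like clusters 3, 4 and 7, Ms4a1 is highest in Zeb2KO cells of cluster 5, and Cd74 is lower in Zeb2KO in each cluster, least in clusters 5, 6 and 8.

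Vsig4 and Cd163 differed in opposite directions, in resident-like and other clusters. Vsig4 was at 25.6 CPM in WT and 183 CPM in Zeb2KO cells of cluster 3, at 25.2 and 282 CPM in cluster 4 and at 120 and 321 CPM in cluster 7. Cd163 was at 186 and 53.1 CPM in cluster 3, at 151 and 72.3 CPM in cluster 4 and at 359 and 54.3 CPM in cluster 7. In cluster 1 Vsig4 was at 13.2 and 103 CPM and Cd163 at 134 and 51.2 CPM, and in cluster 2 Vsig4 was at 6.87 and 96.4 CPM and Cd163 at 64.6 and 27.3 CPM. Vsig4 read 4.88 CPM in WT and 56.5 CPM (42.3 to 73.9) in Zeb2KO fibroblast-like cells. Its Zeb2KO levels of 16.9 CPM in cluster 0 and 13.1 CPM in cluster 8 lay below that reading. Those of clusters 1, 2, 3, 4 and 7 lay above it. Cd163 read 11.4 and 29.8 CPM in fibroblast-like cells, and the Zeb2KO interval (19.8 to 43.1) lies around the Zeb2KO level of cluster 2 and overlaps the interval of cluster 3 (42.1 to 66.1).

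Saa3 was at 8.40 CPM in WT and 937 CPM in Zeb2KO cells of cluster 7, at 242 and 868 CPM in cluster 2 and at 43.4 and 577 CPM in cluster 0. In WT 1 cell of cluster 0 held 395 of its 547 Saa3 UMIs, and 10 cells of cluster 2 held 580 of 704. Fibroblast-like cells read 5.69 CPM (2.29 to 11.7) and 95.9 CPM (77.1 to 118) of Saa3. The Zeb2KO level in cluster 3 was 118 CPM (101 to 137), and its interval overlaps that of the Zeb2KO fibroblast-like cells. In cluster 7, 21 of 331 Zeb2KO cells (6.34%, interval 3.97 to 9.53) and 0 of 236 WT cells (up to 1.55%) had at least 20 UMIs of Saa3. In cluster 5 these were 78 of 707 Zeb2KO cells (11.03%, interval 8.82 to 13.6) and 1 of 52 WT cells (1.92%, 0.0487 to 10.3), and these intervals overlap.

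Cd79b had a lower level in the Zeb2KO cells of each mac cluster, and Mmp9 in those of each but cluster 5. Cd79b ranged from 16.5 CPM to 50.9 CPM over the 11 clusters in WT, and from 0.385 CPM to 8.17 CPM in Zeb2KO. In cluster 5 the intervals of Cd79b overlap, at 16.5 CPM in WT (6.63 to 34.0) and 6.67 CPM in Zeb2KO (4.83 to 8.99). Fibroblast-like cells read 11.4 CPM (6.22 to 19.1) in WT and 0 UMIs in Zeb2KO (up to 3.93 CPM). Mmp9 in cluster 3 was at 45.2 and 1.99 CPM, and in cluster 5 it was at 7.07 CPM in WT (1.46 to 20.7) and 23.4 CPM in Zeb2KO (19.8 to 27.5), intervals that overlap. Eng, which encodes the TGFβ co-receptor endoglin, was at 28.1 CPM (26.6 to 29.6) in WT and 10.5 CPM (9.55 to 11.6) in Zeb2KO over all gated cells, and at 33.6 and 12.5 CPM in cluster 4. Fibroblast-like cells, which make it, held 73.2 and 69.3 CPM.

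Outside cluster 5, several of the highest genes were close to what fibroblast-like cells of the same library read. Ltb was at 12.8 CPM in the other Zeb2KO macs and 10.7 CPM (5.11 to 19.6) in Zeb2KO fibroblast-like cells, Hp at 4.61 and 3.20 CPM, and Lcn2 at 13.6 and 6.40 CPM (2.35 to 13.9). Ms4a1 was at 9.38 CPM (8.33 to 10.5) and 3.20 CPM (0.659 to 9.34). Within these macs Ms4a1 stood at 21.5 CPM in cluster 1 and 35.4 CPM in cluster 6, with 0.210 CPM and 0 UMIs in the WT cells of the same clusters.

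Most MHC class II genes had ratios below 0 in Zeb2KO without passing 2-fold. Of 11 genes, 1 was called (H2-Oa, higher, against 1.01% of all genes), the other H2-O chain H2-Ob had a ratio of 0.62, and all others considered lay below 0, with a median of -0.54 against 0.04 for all genes. Without cluster 5 the median was -0.89 over 9 genes, since H2-Oa and H2-Ob no longer reached 20 CPM. H2-Eb1 was then called lower (8001 and 3805 CPM). Inside single clusters H2-Aa, H2-Ab1 and H2-Eb1 were each called lower in 4 of the 7 clusters compared. These were clusters 2, 3, 4 and 7, all low in MHC class II. In clusters 0 and 8, which are rich in it, H2-Aa had ratios of -0.33 and -0.095. In Zeb2KO, H2-Aa stood at 688 CPM in cluster 4 and 591 CPM in cluster 7, below the 832 CPM of fibroblast-like cells. H2-Ab1 and H2-Eb1 also lay below their fibroblast-like readings there. Over all gated cells H2-Aa was at 7760 and 5106 CPM and H2-Eb1 at 7633 and 4752 CPM. In the same cells H2-DMa was at 788 and 489 CPM, and Cd74 at 22500.3 and 14869 CPM. MHC class I genes did not share this, with none of 14 called and a median of 0.17.

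**Figure D5:**
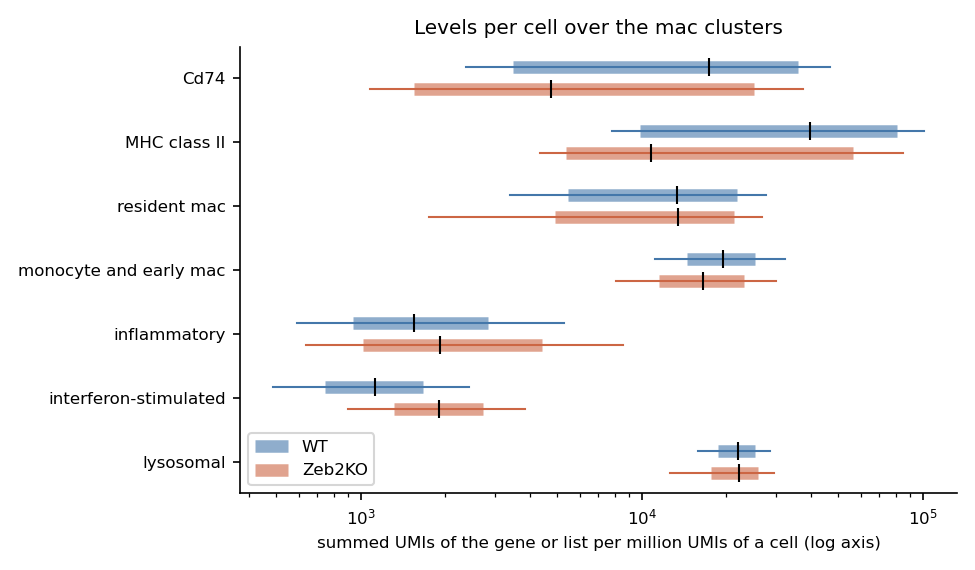
Level per cell, scaled like CPM to the UMIs of that cell (log axis), for Cd74 and for the summed genes of 6 lists, over the 4694 WT and 4124 Zeb2KO cells of the mac clusters; black ticks mark the median, thick bars the middle 50% and thin lines the 10th to 90th percentile of cells. Cd74 and MHC class II have a lower median in Zeb2KO (4766 against 17377 for Cd74), and the interferon-stimulated list has a higher one (1897 against 1122).

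Cell by cell, the median Cd74 level, scaled like CPM to the UMIs of the cell, was 17377 in WT macs and 4766 in Zeb2KO macs. Of the Zeb2KO macs 46.8% lay within the span of the lowest 25% of WT macs and 11.5% within that of the highest 25%. Of the 5 clusters highest in Cd74, clusters 0, 6 and 8 held a smaller share of Zeb2KO than of WT cells and clusters 5 and 10 a larger one. Cd74 was at 40952 CPM in WT and 35129 CPM in Zeb2KO cells of cluster 0, at 25270 and 17263 CPM in cluster 10, at 35347 and 34267 CPM in cluster 8 and at 34358 and 30728 CPM in cluster 6. In the clusters low in Cd74 it was at 9585 and 4794 CPM in cluster 2, at 5187 and 1989 CPM in cluster 4 and at 4882 and 1696 CPM in cluster 7. Fibroblast-like cells read 3063 CPM (2966 to 3162) in WT and 2176 CPM (2083 to 2273) in Zeb2KO. The Zeb2KO levels in clusters 4 and 7 lay below the latter.

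Of 13 interferon-stimulated genes considered 12 lay above 0, with a median log2 ratio of 0.64. Without cluster 5 and the other cell types the median was 0.36, over 14 genes. Of the 13 genes 2 were called higher (1.01% of all genes): Ly6e at 495 CPM in WT and 1057 CPM in Zeb2KO (1.09) and Ly6a, which encodes Sca-1, at 46.6 and 95.6 CPM (1.02). Ifi204 (-0.02) and Oas1a (0.07) had the lowest ratios. Cell by cell, 60.0% of Zeb2KO macs lay within the span of the highest 25% of WT macs for the summed list. In all macs the sum was 0.140% of UMIs in WT and 0.223% in Zeb2KO, with Ly6e alone at 498 and 1082 CPM. In the interferon-like cluster 10 the sum was lower in Zeb2KO, at 0.808% of UMIs in WT and 0.685% in Zeb2KO. Ly6e was higher in Zeb2KO in each of the 11 mac clusters, for example at 328 and 749 CPM in cluster 0 and at 413 and 1071 CPM in cluster 4. Fibroblast-like cells read 365 and 519 CPM of it. Iigp1 was concentrated in cluster 10, at 105 CPM in WT and 555 CPM in Zeb2KO, while fibroblast-like cells read 8.95 and 40.5 CPM. No other mac cluster lay above 40.5 CPM in Zeb2KO, and cluster 5 lay far below it, at 2.79 CPM (1.66 to 4.41). Ly6a had 52.8% of its WT UMIs in clusters of other cell types.

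Inflammatory genes included 4 called higher of 13 considered (1.01% of all genes): the interleukin gene Il1a at 18.5 and 38.1 CPM (1.01), the inflammasome sensor gene Nlrp3 at 35.6 and 81.4 CPM (1.17), Il1rn, which encodes the IL-1 receptor antagonist, at 92.8 and 255 CPM (1.45), and Ptgs2 at 35.7 and 102 CPM (1.49). Without the clusters of other cell types Il1a was not called (0.99), and without cluster 5 none of the 13 was. Il1b was at 712 and 1302 CPM over all gated cells (0.87), and at 701 CPM in WT and 620 CPM in Zeb2KO macs outside cluster 5. Tnf (-0.24) and the endotoxin receptor gene Cd14 (-0.19) had the lowest ratios of the list.

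Acute phase and antimicrobial genes had 3 called higher of 6 considered (Saa3, Hp and Lcn2), against 1.01% of all genes, and a median of 1.997, which was 0.42 over the 4 genes considered without cluster 5. The lysozyme genes Lyz1 (-0.56) and Lyz2 (-0.24) were the lowest of the list. Of 16 monocyte and early mac genes 2 were called higher, Hp and the mycobacterial glycolipid receptor gene Clec4e (1.92), and Ccr2 was called lower at 92.4 and 37.4 CPM (-1.28), against 1.01% higher and 0.531% lower of all genes. Without cluster 5 none of the list was called higher. Outside cluster 5 the Ccr2 ratio was -2.82, from 94.2 to 12.4 CPM. In cluster 6, which held 592 WT and 46 Zeb2KO cells, Ccr2 was level at 366 CPM (351 to 382) and 335 CPM (278 to 399.6). In cluster 0 Ccr2 was at 77.1 and 7.11 CPM, and in cluster 8 at 97.2 and 2.01 CPM, where the Zeb2KO levels are not above the 9.59 CPM (4.39 to 18.2) of fibroblast-like cells.

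The resident mac list of 19 genes had a median of 0.05, near that of all genes, with Vsig4 and the ficolin gene Fcna (1.07, from 224 to 472 CPM) called higher and Cd163 lower, against 1.01% and 0.531% of all genes. Complement genes had C3 (from 24.9 to 71.2 CPM) and Vsig4 called higher of 12, against 1.01% of all genes, with a median of 0.26. Without cluster 5 and the other cell types 4 of 11 were called higher, against 0.618% of all genes, with a median of 0.56. Of 17 chemokine ligand genes Ccl12 was called higher, at 254 and 588 CPM (1.21), against 1.01% of all genes, with Ccl7 at 515 and 900 CPM (0.80). Lipid genes had Lpl (-1.03), which encodes lipoprotein lipase, and Fabp4 called lower of 17, against 0.531% of all genes, and Lpl alone without the clusters of other cell types. Of 28 mac transcription factor genes Id2 was called higher, at 117 and 246 CPM (1.06), against 1.01% of all genes, with Cebpa (-0.71) and Batf3 (-0.59) lowest, and without cluster 5 none was called. Of 26 epithelial genes and reported targets of ZEB repression 5 were considered, and Plp2 (1.08) and Bri3bp (1.21) were called higher, against 1.01% of all genes.

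None was called among 14 S100 and annexin genes, 22 genes of gut mac maturation, 7 Fc receptor genes, 23 lysosomal genes, 18 immediate early and heat shock genes, 16 cell cycle genes and 15 cell death genes. With 1.54% of all genes called, lists of this size would mostly hold none. Without the clusters of other cell types S100a11 was called higher (1.04). The ratios furthest from 0 over all gated cells were S100a11 at 0.89, Bcl2l11 at 0.85, Gpnmb at -0.82, S100a4 at 0.77, Smad7 at -0.75 and Cdkn1a at 0.73. The median of the immediate early and heat shock list was 0.04, as over all genes. Of 6 MS4A genes considered Ms4a1 was called (1.54% of all genes), and Ms4a7 had a ratio of -0.16. The Ifitm genes Ifitm2 and Ifitm3 had ratios of 0.28 and 0.24 beside 2.48 for Ifitm1. Of 13 genes of haem and iron handling Hp was called higher and Cd163 lower, and of 20 scavenger genes only Cd163 was called, against 1.01% of all genes called higher and 0.531% lower.

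Some of the genes highest in the colon were also higher in other Zeb2KO macs, each against its own WT library. The Zeb2KO SMs and microglia came from Fcgr1-cre mice like the colon cells, and the Zeb2KO KCs from Clec4f-cre mice. Ms4a1 had log2 ratios of 1.28 in SMs and 3.47 in KCs, Ltb of 1.29 in SMs, 1.46 in KCs and 2.58 in microglia, and H2-Oa of 2.35, 2.61 and 0.89. Il1r2 was at 0.0754 CPM in WT and 35.4 CPM in Zeb2KO KCs. Cd163 was lower in SMs (-3.83) and KCs (-2.62). Others were not shared: Vsig4 had a ratio of -0.94 in KCs, where it stood at 3195 and 1665 CPM, Saa3 was under 1 CPM in SMs and microglia, and Mmp8 was under 1 CPM in all 3. These differences between tissues were not tested, as each tissue had 1 library a side. Siglecf was at 0.570 and 3.36 CPM in colon, where the sort excluded SiglecF+ cells, and Itgax was level at 82.0 and 83.5 CPM (0.03).

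Promoters were read for the sequence CACCTG on either strand (on the other strand it reads CAGGTG), an E-box that ZEB proteins bind. Promoter sequences are those of RefSeq on GRCm38.p6, from 250 bases before to 50 after each start. Of 27025 genes with a promoter 22.6% held the motif in at least 1 of theirs, as did 19.5% of the 4101 genes considered, 9 of 37 genes called higher (24.3%) and 6 of 21 called lower (28.6%). Of the 12 highest genes 8 had a promoter in the table and 2 of these held the motif, Saa3 and Ltb. Of the 12 lowest 8 had one and 3 held the motif, among them H2-M2 and Gbp2b. The sites of these 4 genes are shown because they belong to the genes furthest apart, with the motif in capitals, each read 5′ to 3′ on the strand of its gene. A match describes the letters only and is no measure of binding.
Saa3, chr7:46715664-46715691, minus strand: cagaagccactCACCTGgggtcccagaa
Ltb, chr17:35194430-35194457, plus strand: cgggcagggggCAGGTGtgtgggtctgc
H2-M2, chr17:37483771-37483798, minus strand: tgatatctcgtCAGGTGtctgggcaaag
Gbp2b, chr3:142594815-142594842, plus strand: caataaaacacCAGGTGcagagagcatc
Counted from the RefSeq start of the promoter, the motif began 4 bases before it in Saa3, 66 in Ltb, 233 in H2-M2 and 21 in Gbp2b. The GENCODE models of Saa3 and Ltb begin further upstream, so that the motif lies inside them.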

How the data were processed

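The authors deposited unnormalised UMI counts per barcode for 27998 genes, 1 table a library, made with Cell Ranger on mm10, and these counts were used here. The C1q gate left 4984 WT and 4370 Zeb2KO colon cells. UMIs were summed per library and scaled to CPM. A pseudocount of 1 CPM was added before log2 ratios were taken, with a floor of 20 CPM. With 1 library a side no test was made. Cells were clustered in scanpy 1.11.5 and leidenalg 0.10.2 on 2000 variable genes, 30 components and 15 neighbours at a resolution of 0.8. A cluster was named from a marker list with a mean log2 fold of at least 1. At least 3 of the markers had to be seen in 20% of cells and at least 1 among its top 10 genes. A cluster so named for another cell type was counted as such where its mac markers were on average at least 2-fold lower than in the other cells. Shares of cells come from cells thinned to 3000 UMIs. The 25 barcodes that missed the gate were too few to serve as background, so cells of other types were set beside the macs. Scrublet called no doublets in either library and so did not work here. Genes named were the 12 highest and 12 lowest called, the members of 25 gene lists past 2-fold with the extremes of each list, and a panel of the study. Members and lists were chosen with earlier results of these data known. The steps were tested on simulated data. Gene coordinates are those of GENCODE M21. TMM factors came from edgeR 4.0.16.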

Additional observations from a re-analysis of the deposited data

Results flagged for a closer look

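Fabp4 was at least 2-fold apart in opposite directions in colonic macs (log2 ratio -1.45) and in SMs, where it stood at 65.4 CPM in WT and 171 CPM in Zeb2KO (1.38). Each tissue had 1 library a side and the difference was not tested. In the colon 79.9% of its WT UMIs lay in clusters of other cell types.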

How the results depend on the processing

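The count of 81 genes called became 176 with a floor of 5 CPM, 246 with no floor, 38 with a floor of 50 CPM and 51 with equal cluster weights in both libraries (28 higher and 23 lower). It lay between 56 and 102 under the other settings, which were TMM scaling, other pseudocounts and gates, cell filters, removal of other cell types and of high doublet scores, means over cells and, added after seeing the data, removal of clusters 5 and 6. A gate of 20 C1q UMIs gave 102 genes, of which 47.1% were higher, against 65.4% of the main count, and equal weights gave 54.9%. The summed difference of cluster shares was 26.8% at a resolution of 0.4, 39.1% at 1.2 and 40.3% with all variable genes. Hbb-bt, which rests on 1 cell in each library, reversed to 1.86 with equal cluster weights. Of the genes named, 191 of 390 values under other settings lay outside a counting interval, and 1 more, that of Hbb-bt, reversed. That interval was taken from the UMIs without the pseudocount, so for genes of low CPM the main ratio itself can lie outside it. The 191 therefore do not measure how far the ratios depend on the processing. The cause of the changes between settings was not tested. No paired analysis was possible because each group had 1 library. The floor of 20 CPM leaves changes in rarer transcripts unread.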
